A study of Mus musculus with 9 samples.

Results

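Laminin chains are the subunits of the large cross-shaped trimers of basement membranes, and their transcripts were followed here in primary 4T1 mammary tumors of mice given the focal adhesion kinase inhibitor BI 853520 or its vehicle. The 9 chain genes Lama1, Lama2, Lama3, Lama4, Lama5, Lamb1, Lamb2, Lamb3 and Lamc1 were chosen by family membership and taken by Entrez identifier from a table of 18755 genes. 4T1 is a metastatic mouse breast cancer line that grows in immunocompetent BALB/c mice. All animals were females of 6 to 10 weeks that received 1000000 4T1 cells in mammary fat pad number 9, and dosing ran for 5 days from day 15. The vehicle group (tumors 1 to 3, n = 3) was given 0.5% Natrosol alone, and the BI 853520 group (tumors 4 to 9, n = 6) was given 50 mg/kg of the compound. Stranded mRNA libraries of snap-frozen tumor pieces were sequenced, and total counts per tumor ranged from 16931607 to 33850245. The study states that it analyzed further only tumors whose RNA quality was sufficient. The labels name separate tumors but do not say that each came from its own mouse, so p-values measure only the spread between these samples.

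Each laminin trimer holds 1 α, 1 β and 1 γ chain, and Lamc1 supplies the γ chain in most tissues. Lama5 chains build laminins of epithelial and mature vascular basement membranes, Lama4 chains those of blood vessels and other mesenchymal layers, Lama2 chains those of muscle and peripheral nerve, and Lama1 chains those of the early embryo. Lama3 and Lamb3 chains belong to the laminin that anchors basal epithelium through hemidesmosomes. Laminins bind nidogens, perlecan and agrin, lie beside a network of type IV collagen, and are read by cells through integrins and dystroglycan, and ligand-bound integrins are upstream activators of focal adhesion kinase.

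The tumors carried transcripts of the simple epithelial keratins that 4T1 cells express, with Krt18 at 578.6 ± 57.7 CPM (counts scaled to library size and corrected for library composition; SD, n = 3) in the vehicle group. Other epithelial markers, named after their values were seen, were low, with Epcam, an epithelial adhesion molecule, at 2.13 ± 0.603 CPM, Cldn7 at 0.972 ± 0.32 CPM and Cdh1, which encodes E-cadherin, at 19.2 ± 0.566 CPM (SD, n = 3 each). Because whole tumor pieces were sequenced, fewer cells of a type and less RNA per cell cannot be told apart in any of the values below.

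Lama5, Lamb1 and Lamc1 were the most abundant of the 9 chains in all 9 tumors. On a per-length scale (RPKM, which is CPM per kilobase of the deposited gene length), vehicle means were 160.9 for Lamb1, 137.1 for Lama5 and 126.4 for Lamc1, followed by 20.2 for Lamb2 and 7.05 for Lama4. Lama2 lay at 0.554, while Lamb3 at 0.0840, Lama3 at 0.0557 and Lama1 at 0.0172 were close to the limit of detection. The order among the 3 dominant chains depended on the length used: with exon lengths from GENCODE, chosen after the data were seen, vehicle means were 136.9 for Lama5, 116.5 for Lamc1 and 93.8 for Lamb1. The same change lowered Lama4 to 3.53, because its GENCODE exons cover 12068 bases against 6046 bases in the deposited table, and left the order of the remaining chains as it was. The plot of chain levels shows the range over which the family spreads.

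**Figure D1:**
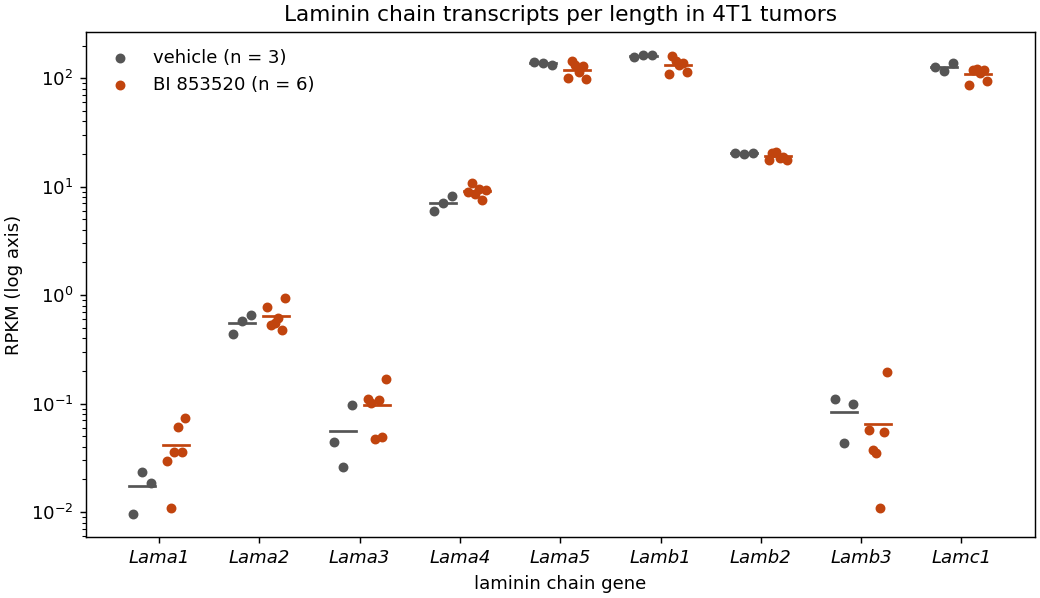
RPKM (log axis) of each of the 9 laminin chain genes in every tumor, with vehicle tumors in gray and BI 853520 tumors in orange and a line at each group mean. Lama5, Lamb1 and Lamc1 lie above the other chains in every tumor, Lamb2 and Lama4 lie between them and the low genes, and the groups overlap for every chain.

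Lama5 and Lamb1 are shown with their upstream sequences because they were 2 of the 3 dominant chains, and Lamb2 is shown as the minor β chain. The order of the treated tumors does not set Lamb2 apart, since tumors 4, 9, 7 and 8 were the lowest 4 for all 3 genes. The 250 bases before the annotated start were taken from a table of RefSeq promoters (GRCm38.p6), in which 5 of the 9 genes were matched, and are printed 5′ to 3′ on the strand of the gene. Capitals mark the letters GGGCGG, the core of a GC box, on either strand, so that a match on the opposite strand reads CCGCCC. The Lama5 window is chr2:180225860-180226109 (minus strand), the Lamb1 window chr12:31265043-31265292 (plus strand) and the Lamb2 window chr9:108479612-108479861 (plus strand).
Lama5: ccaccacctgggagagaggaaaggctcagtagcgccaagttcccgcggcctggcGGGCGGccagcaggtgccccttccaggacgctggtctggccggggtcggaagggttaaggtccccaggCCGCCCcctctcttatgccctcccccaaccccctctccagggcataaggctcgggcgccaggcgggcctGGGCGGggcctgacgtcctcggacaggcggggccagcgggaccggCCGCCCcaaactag
Lamb1: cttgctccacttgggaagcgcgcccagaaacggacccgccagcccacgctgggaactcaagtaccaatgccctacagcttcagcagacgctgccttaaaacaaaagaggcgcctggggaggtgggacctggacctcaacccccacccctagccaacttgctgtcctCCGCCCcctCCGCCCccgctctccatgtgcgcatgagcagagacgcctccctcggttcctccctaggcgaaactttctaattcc
Lamb2: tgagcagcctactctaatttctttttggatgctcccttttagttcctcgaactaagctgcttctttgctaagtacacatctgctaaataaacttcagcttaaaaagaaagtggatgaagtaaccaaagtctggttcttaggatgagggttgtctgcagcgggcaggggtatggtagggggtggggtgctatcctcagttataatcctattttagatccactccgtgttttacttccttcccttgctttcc
Lama5 held 4 matches and Lamb1 held 2, with none in Lamb2, and 32.7% of the 32851 windows in the table held at least 1. The GC content was 72.4% for Lama5, 62.0% for Lamb1 and 43.6% for Lamb2, beside a median of 52.4% over all windows. None of the 3 windows held TATAAA (in 12.4% of windows) or TGANTCA (in 6.75%), both searched on both strands, so no match to GGGCGG overlapped another motif. These matches describe the letters of the windows only.

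Of the 9 chains, 7 had enough counts to be tested, and Lama4 was the 1 chain that rose, with no chain falling, when p-values of edgeR's quasi-likelihood test were adjusted by Benjamini-Hochberg and held to 0.05. Over all 13966 genes tested, 28.7% changed at this threshold, 14.6% upward and 14.1% downward. Among the 7 chains, 2 had an unadjusted p of at most 0.05 (Lama4 upward and Lamb1 downward), beside 40.7% of all genes (20.5% upward and 20.3% downward). DESeq2 called Lamb1 as lower at an adjusted p of 0.0443, whereas limma-voom and edgeR's likelihood ratio test called no chain as lower. At the cutoffs of the study, an unadjusted p of at most 0.05 with a change of at least 1.5-fold, 0 of the 7 chains passed, where 13.2% of all genes did (9.59% upward and 3.57% downward). The median log2 fold change of the 7 chains was -0.08, beside -0.00371 over all genes, and 4 of 7 were below 0, as were 50.5% of all genes. In 0 of the 7 chains did the groups separate completely, as they did for 28.1% of all genes.

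Lama5, the main α chain (mm9, chr2:179911078-179960564, minus strand), gave 1593, 1573 and 1517 CPM in the vehicle tumors and between 1112 and 1653 CPM in the BI 853520 tumors, with a median of 1374. Treated tumors 4 and 9 were the lowest and treated tumor 5 was the highest of all 9, with 5 of 6 treated tumors below every vehicle tumor. The group means were 1561 ± 39.5 (SD, n = 3) and 1361 ± 216 CPM (SD, n = 6), and the log2 fold change of -0.20 (SE 0.119) did not pass edgeR's test (adjusted p = 0.236). The spread among treated tumors was larger than the difference between the means.

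Lamb1, the main β chain (mm9, chr12:31950099-32014509, plus strand), stood at 907.5, 941 and 941 CPM in the vehicle tumors and between 637 and 932 CPM in the BI 853520 tumors, with a median of 778. Here, too, 5 of 6 treated tumors lay below every vehicle tumor, and tumor 5 fell within the vehicle range. The means were 929.8 ± 19.4 and 770.3 ± 109 CPM (SD, n = 3 and n = 6), with a log2 fold change of -0.27 (SE 0.107). It missed the threshold in edgeR's quasi-likelihood test (adjusted p = 0.0763), with a two-sided exact permutation p of 0.0476, where 0.0238 is the smallest the 84 divisions of these tumors allow. Without treated tumor 5, edgeR's adjusted p was 0.0184.

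Lamc1, the γ chain shared by most trimers (mm9, chr1:155066052-155179916, minus strand), had 957, 892 and 1041 CPM in the vehicle tumors and 663 to 926 CPM in the BI 853520 tumors, with a median of 874. The groups overlapped, with 3 of 6 treated tumors below every vehicle tumor. The log2 fold change was -0.22 (SE 0.109, edgeR adjusted p = 0.152), from 963.5 ± 75 to 827.9 ± 110 CPM (SD, n = 3 and n = 6). Treated tumors 4 and 9 were the lowest 2 treated tumors for Lama5, Lamb1 and Lamc1, and also for Lamb2, Col4a1 and Hspg2, so this order was not particular to the 3 dominant chains.

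**Figure D2:**
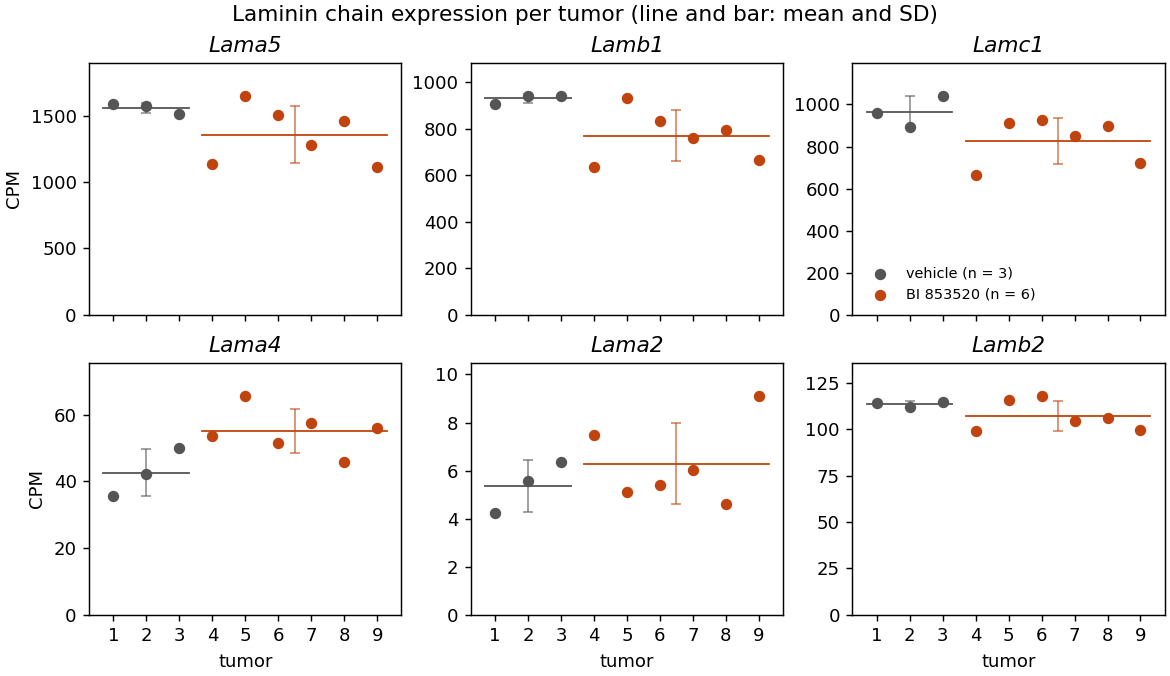
CPM of 6 laminin chain genes in each tumor, numbered 1 to 9 (vehicle in gray, n = 3; BI 853520 in orange, n = 6), with lines at group means and bars for SD, each axis starting at 0. Treated tumors 4 and 9 are lowest for Lama5, Lamb1, Lamc1 and Lamb2, whereas Lama4 lies above the vehicle maximum in 5 of 6 treated tumors.

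Lama4, the vascular and mesenchymal α chain (mm9, chr10:38685321-38829994, plus strand), was 35.8, 42.3 and 49.9 CPM in the vehicle tumors and between 45.7 and 65.6 CPM in the BI 853520 tumors, with a median of 54.7. The treated tumors were above every vehicle tumor in 5 of 6 cases, and tumor 8 lay within the vehicle range. Expression rose 1.29-fold, from 42.6 ± 7.07 to 55.0 ± 6.64 CPM (SD, n = 3 and n = 6), at a log2 fold change of 0.36 (SE 0.117, edgeR adjusted p = 0.0358; two-sided exact permutation p = 0.0476). The call was lost in several fits that left out a single tumor, each of which also has fewer samples. In edgeR the adjusted p was 0.166 without vehicle tumor 1 (log2 fold change 0.25) and 0.0983 without vehicle tumor 2 (0.36). It was 0.0509 without treated tumor 5 (0.31), 0.0651 without treated tumor 7 (0.35) and 0.0537 without treated tumor 9 (0.36). The direction was the same in each of these fits.

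Lamb2, a β chain of vascular, muscle and synaptic laminins, was at 114, 112 and 115 CPM in the vehicle tumors and 99.4 to 118 CPM in the treated tumors. Its log2 fold change, the smallest in size of the 7 tested chains, was -0.08 (SE 0.0647, edgeR adjusted p = 0.352). Lama2, the muscle and nerve α chain, was 4.22, 5.55 and 6.36 CPM and then 4.62 to 9.10 CPM, with overlapping groups and a log2 fold change of 0.22 (SE 0.215, edgeR adjusted p = 0.479), which ran from 0.07 without vehicle tumor 1 to 0.36 without vehicle tumor 3. Lama3, of the hemidesmosomal laminin, had 6 to 34 counts per tumor and a log2 fold change of 0.73 with an SE of 0.471 (edgeR adjusted p = 0.271). Leaving out single tumors moved its log2 fold change between 0.41 without vehicle tumor 2 and 1.45 without vehicle tumor 3 (edgeR adjusted p = 0.596 and 0.0939).

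Lama1 and Lamb3 did not pass the filter on low counts. Lama1, the embryonic α chain, had 2, 5 and 6 counts in the vehicle tumors and 2 to 13 counts in the treated tumors. Lamb3, the β partner of Lama3, had 10, 4 and 14 counts in the vehicle tumors and 1 to 14 in the treated tumors, the highest being tumor 9. At this depth, 3 counts equalled 0.0884 to 0.174 CPM, and no fold change is given for these 2 genes.

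Within the α and β classes, summed RPKM was 144.7 ± 2.21 for the α chains in the vehicle group and 129.4 ± 19 in the BI 853520 group (SD, n = 3 and n = 6), and 181.2 ± 3.25 and 152.4 ± 20.1 for the β chains. Lama5 made up 94.7% of α chain RPKM in the vehicle group and 92.2% in the treated group, while the share of Lama4 was 4.88% and 7.14%. Lamb1 made up 88.8% and 87.4% of β chain RPKM. The ratio of Lama5 to Lamc1 within a tumor was 1.09 ± 0.105 in the vehicle group and 1.10 ± 0.0753 in the treated group. The ratio of Lama4 to Lama5 ran from 0.0423 to 0.0619 in vehicle tumors and from 0.0588 to 0.0949 in treated tumors. With GENCODE exon lengths, the summed vehicle RPKM was 141 for the α and 114.1 for the β chains. On that scale Lama5 held 97.1% and 95.6% and Lama4 2.51% and 3.72% of α chain RPKM in the vehicle and treated groups, and Lamb1 held 82.2% and 80.1% of β chain RPKM. The ratio of Lama4 to Lama5 then ran from 0.0212 to 0.0311 and from 0.0295 to 0.0476, since another length multiplies the ratio by the same factor in every tumor. These shares and ratios are descriptions without a test.

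Transcripts of laminin partners included more genes that fell than rose. Over 4 lists of basement membrane components, integrins, other receptors and proteases, 26 of 30 genes were tested, 2 rose, 12 fell and 12 did not pass, with a median log2 fold change of -0.22. Over all genes, 14.6% rose and 14.1% fell. The lists were chosen with earlier results of these data known, so these counts are descriptions only. The plot of fold changes sets each gene beside the chains, and the difference between the lists and the chains was not itself tested.

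**Figure D3:**
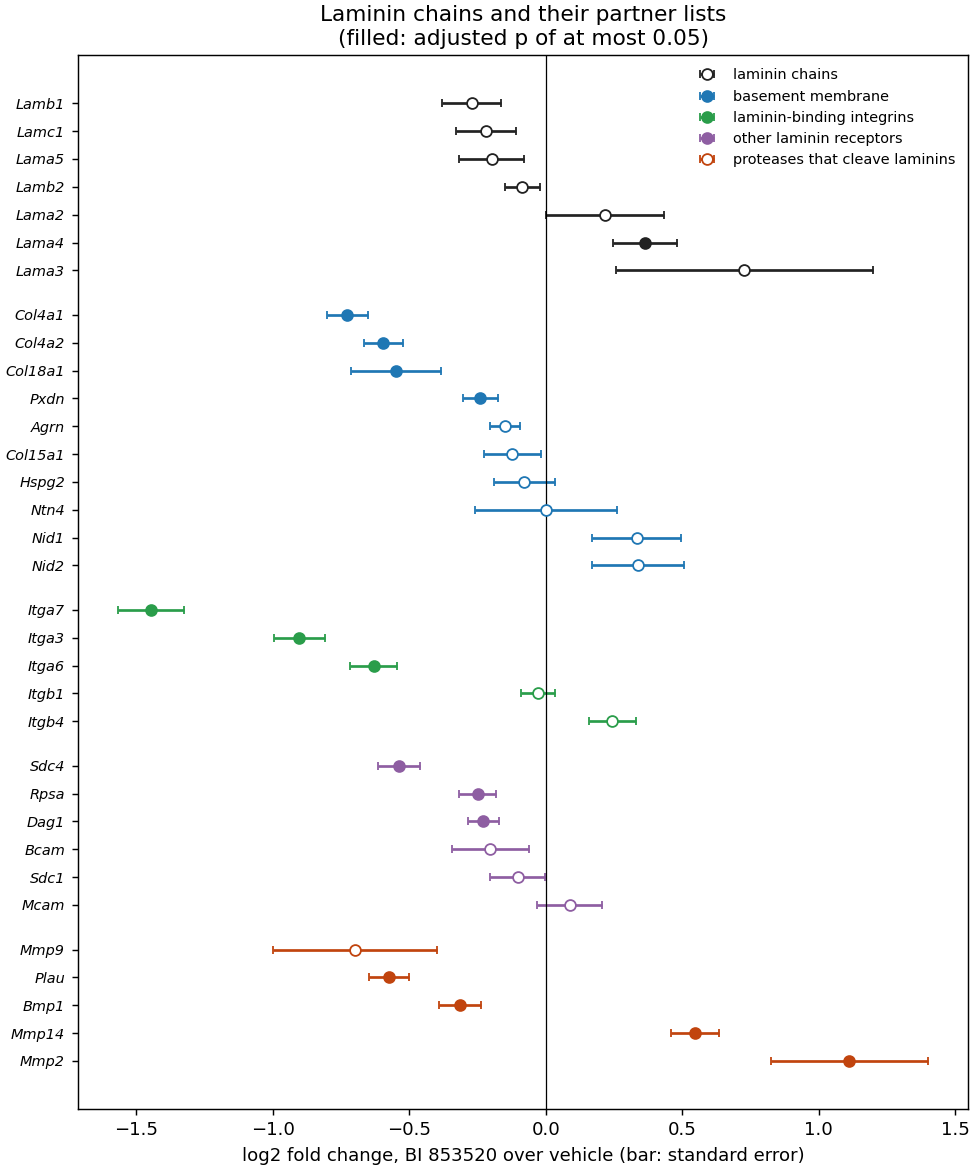
Log2 fold change of BI 853520 over vehicle for the 7 tested laminin chains and for the tested genes of 4 partner lists, with bars for the standard error and filled symbols for an edgeR adjusted p of at most 0.05. Itga7, Itga3 and Col4a1 lie furthest below 0 and Mmp2 furthest above, while every chain drawn except Lama3 stays within 0.5 of 0.

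Among 14 basement membrane genes, 10 were tested, 4 fell and none rose, where 14.1% of all genes fell and 14.6% rose. At an unadjusted p of at most 0.05 in edgeR, 0 of the 10 were upward and 5 downward, where 20.5% and 20.3% of all genes were. Col4a1, a major subunit of the collagen IV network and the most abundant of them per length in the vehicle group, had 691.4 ± 7.07 CPM in the vehicle group and 417.8 ± 37.5 in the treated group (SD, n = 3 and n = 6). Its log2 fold change was -0.73 (SE 0.0756, edgeR adjusted p = 5.97e-05), and Col4a2, its partner subunit, fell by 0.59 on the log2 scale (edgeR adjusted p = 0.000151). These neighbors are transcribed in opposite directions from starts 21 bases apart on chromosome 8 (mm9), with exons that overlap. Every treated tumor was below every vehicle tumor for both genes, as for 14% of all genes. Pxdn, which cross-links collagen IV, fell by 0.24 (edgeR adjusted p = 0.0152; 0.0794 without vehicle tumor 3).

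Further members are named after their values were seen. Col18a1, the source of endostatin, fell by 0.55 on the log2 scale (edgeR adjusted p = 0.0267; 0.119 without vehicle tumor 2 and 0.0601 without vehicle tumor 3). Agrn, whose product links laminin to dystroglycan, had a log2 fold change of -0.15 (edgeR adjusted p = 0.0633). In all 6 treated tumors it lay below every vehicle tumor, as did 14% of all genes. It passed with DESeq2 (adjusted p = 0.0217) and in edgeR without treated tumor 7 (adjusted p = 0.0481). Hspg2, which encodes perlecan, had a log2 fold change of -0.08 (edgeR adjusted p = 0.633). Nid1 and Nid2, the nidogens that bridge laminin to collagen IV, had log2 fold changes of 0.33 and 0.34 (edgeR adjusted p = 0.149 and 0.153), and Nid1 passed without treated tumor 6 (edgeR adjusted p = 0.0127). The per-length ratio of Col4a1 to Lamb1 was 0.635 to 0.672 in vehicle tumors and 0.423 to 0.535 in treated tumors, without overlap. With GENCODE exon lengths it was 1.06 to 1.12 and 0.705 to 0.89.

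Of the 5 laminin-binding integrin genes, all 3 α subunits fell and the groups did not overlap: Itga7, the muscle laminin receptor subunit, went from 63.7 ± 1.84 to 23.5 ± 4.29 CPM, Itga3, an epithelial receptor subunit for Lama5 and Lama3 laminins, from 622.7 ± 55.9 to 333 ± 37.3 CPM, and Itga6 from 420.8 ± 42.4 to 271.8 ± 24.1 CPM (SD, n = 3 and n = 6). In edgeR's test their adjusted p-values were 1.92e-05, 5.74e-05 and 0.000295. Over all genes, 14.1% fell and 14% had every treated tumor below every vehicle tumor. Of the β subunits, Itgb1, the shared subunit and the most abundant of the list per length, had 914 ± 19.5 and 896.9 ± 40.1 CPM (edgeR adjusted p = 0.776). Itgb4, the hemidesmosome subunit that pairs with Itga6, and named after its values were seen, had a log2 fold change of 0.24 and narrowly missed the threshold (edgeR adjusted p = 0.0529). It passed as higher in 6 of the 7 other scalings, filters and tools, with adjusted p from 0.0234 to 0.0635. Leaving out single tumors gave log2 fold changes from 0.14 without vehicle tumor 3 to 0.33 without vehicle tumor 2 (edgeR adjusted p = 0.249 and 0.0255). Exons of Itga7 overlap Mettl7b on the other strand, those of Itgb4, Nid2 and some other partner genes overlap other genes there, and the sources used here do not say whether counting used strand. Mettl7b, a neighbor outside the lists and named for this overlap, was itself at 3.61 CPM in the vehicle group and 0.927 CPM in the treated group.

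The per-length ratio of Itga3 to Lama5 was 0.848 to 1.00 in vehicle tumors and 0.446 to 0.671 in treated tumors. That of Itga6 to Lama5 was 0.447 to 0.556 and 0.282 to 0.504, so these groups overlapped. With GENCODE exon lengths the ranges were 0.721 to 0.852 and 0.38 to 0.571 for Itga3, and 0.299 to 0.371 and 0.188 to 0.337 for Itga6. The ratios of chains and partners are plotted by group, and were chosen after the values were seen.

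**Figure D4:**
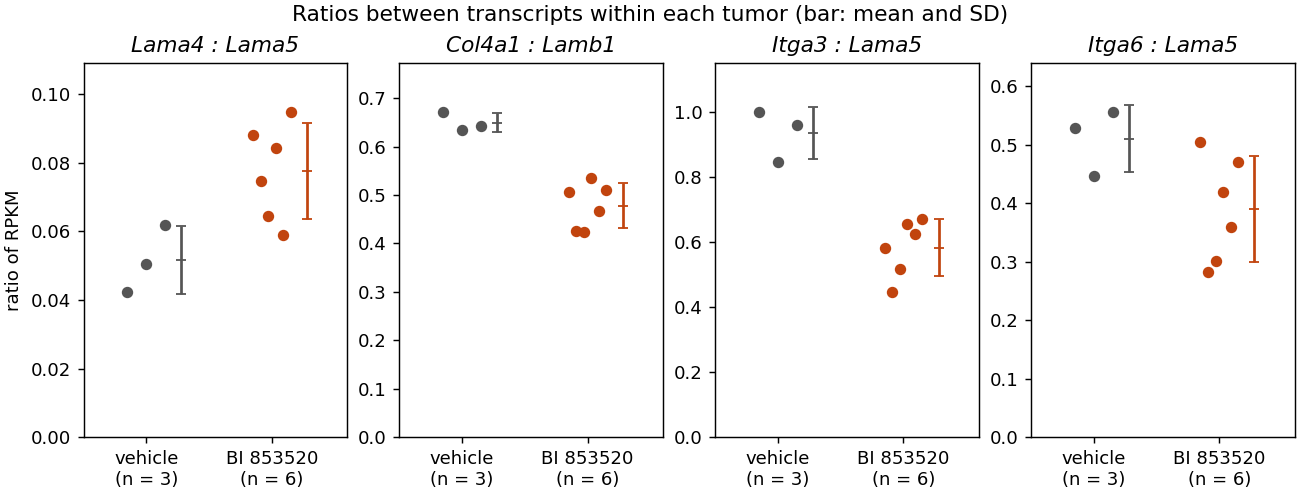
Ratio of RPKM within each tumor (deposited lengths) for Lama4 to Lama5, Col4a1 to Lamb1, Itga3 to Lama5 and Itga6 to Lama5, by group (vehicle n = 3, BI 853520 n = 6), with bars for mean and SD. Only Col4a1 to Lamb1 and Itga3 to Lama5, among the 4 ratios drawn, have groups that do not overlap.

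Of 6 other laminin receptors, 3 fell and none rose, where 14.1% of all genes fell and 14.6% rose. At an unadjusted p of at most 0.05 in edgeR, 0 receptors were upward and 3 downward, beside 20.5% and 20.3% of all genes. Sdc4, a heparan sulfate proteoglycan of focal adhesions and the most abundant of the list per length, fell by 0.54 on the log2 scale (SE 0.0779, edgeR adjusted p = 0.00047). Dag1, which encodes dystroglycan, fell by 0.23 (edgeR adjusted p = 0.011; 0.0621 without vehicle tumor 3), and Rpsa, a ribosomal protein also described as a laminin receptor, fell by 0.25 (edgeR adjusted p = 0.0178; 0.0722 and 0.0529 without vehicle tumors 1 and 2). For these 3 genes every treated tumor lay below every vehicle tumor, as for 14% of all genes. The other 3 genes did not pass.

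Genes of the protease list moved both ways. Mmp14, a membrane-bound matrix metalloproteinase, rose from 503.4 ± 41.8 to 735.6 ± 66 CPM (SD, n = 3 and n = 6; edgeR adjusted p = 0.000814). All 6 treated tumors lay above every vehicle tumor for this gene, as for 14.1% of all genes. Per length, Mmp14 was the most abundant of the list in the treated group, at 283.3 RPKM. In the vehicle group Plau was the most abundant, at 220.6 against 193.8 RPKM for Mmp14. Mmp2, a gelatinase activated by Mmp14 and named after its values were seen, rose from 72.2 ± 18.6 to 156.4 ± 56.2 CPM (SD, n = 3 and n = 6; edgeR adjusted p = 0.0135), with adjusted p-values of 0.0619 and 0.0606 without vehicle tumors 1 and 2. Plau, which encodes urokinase, fell by 0.58 and Bmp1, a procollagen proteinase that also trims laminin chains, fell by 0.31 on the log2 scale (edgeR adjusted p = 0.00021 and 0.00974). Mmp9, the gelatinase abundant in neutrophils and also named after its values were seen, had a log2 fold change of -0.70 with an SE of 0.299 (edgeR adjusted p = 0.101; 0.0237 without treated tumor 9).

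Cell type markers were read beside the laminin values, and their part in those values was not tested. Over all genes, 14.6% rose and 14.1% fell. Of 10 endothelial markers, 4 rose and none fell, with a median log2 fold change of 0.36, and their summed CPM was 208.9, 233.8 and 208.7 in the vehicle tumors and 232.2 to 329.8 in the treated tumors. All 4 calls were lost in edgeR when vehicle tumor 3 was left out. Pecam1, the most abundant per length, was at 79.9 ± 7.07 and 100.9 ± 15.7 CPM (SD, n = 3 and n = 6; edgeR adjusted p = 0.0532), and Kdr and Tie1 rose, by 0.38 and 0.49 on the log2 scale (edgeR adjusted p = 0.0214 and 0.0222), each call holding in 7 of the 9 fits that left out 1 tumor (lost without vehicle tumor 2 or 3 for Kdr and 1 or 3 for Tie1). Among the treated tumors, tumor 5 was the highest and tumor 8 the lowest for Lama4, for the endothelial sum and for the macrophage sum alike. Among the vehicle tumors, tumor 3 was the highest for Lama4 and the lowest for both sums. Of 8 fibroblast markers, 2 rose (Thy1 and Col1a2; edgeR adjusted p = 0.0116 and 0.0437), and Col1a1, the most abundant per length, was at 630.9 ± 272 and 1230 ± 463 CPM. Their summed CPM was 1947, 2050 and 3359 in the vehicle tumors and 2583 to 5801 in the treated tumors, with tumors 9 and 4, the lowest for Lama5, at the top.

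Of 8 pericyte and smooth muscle markers, 1 rose, Acta2, also the most abundant per length (1.20-fold, edgeR adjusted p = 0.0465), and Cnn1, next by p, was at 0.428 and 0.77 CPM (edgeR adjusted p = 0.0784), while the summed CPM was 132.6 to 172.9 in the vehicle tumors and 154.4 to 185.6 in the treated tumors. Of 7 carcinoma epithelium markers, 2 fell and none rose: Krt18, the most abundant per length, at 0.708-fold and Krt8 at 0.824-fold (edgeR adjusted p = 0.00636 and 0.0444), with summed CPM of 962.1 to 1190 in the vehicle tumors and 756.7 to 965.8 in the treated tumors, sums made up mostly of these 2 keratins. Of the 7 markers, 3 were below 0 on the log2 scale and the median was 0.11, with Epcam at 2.13 and 4.42 CPM (edgeR adjusted p = 0.0987). Among 5 basal and myoepithelial markers, the cells in which Lama3 and Lamb3 laminin is usual, 4 were tested and 1 rose (Oxtr, from 0.199 to 0.823 CPM; edgeR adjusted p = 0.0289), while the other 3 tested had log2 fold changes below 0 and did not pass. Krt14, the most abundant per length, was at 0.924 and 0.545 CPM (edgeR adjusted p = 0.329), and the median of the list was -0.26. The direction of Krt14, and of Krt5, named after its values were seen, rested on vehicle tumor 3. Without that tumor the vehicle means were 0.503 CPM for Krt14 and 0.227 CPM for Krt5, beside 0.545 and 0.634 CPM in the treated tumors. With single tumors left out, Krt18 passed in 9 of 9 fits, and Krt8, Acta2 and Col1a2 each passed in 3 of 9, with edgeR adjusted p up to 0.195, 0.204 and 0.161. Those 3 calls were lost without vehicle tumor 1 or 2 and without several of the treated tumors, and the Acta2 call also without vehicle tumor 3. Thy1 passed in 7 of 9 and Oxtr in 6 of 9, both lost without vehicle tumor 1 or 2, and Oxtr also without treated tumor 7. Mrc1, a macrophage receptor, named after its values were seen, passed in 7 of 9, with edgeR adjusted p up to 0.0677. All 6 macrophage markers rose, C1qa being the most abundant per length (358.4 ± 57.7 to 747.1 ± 71.2 CPM; SD, n = 3 and n = 6), and 4 of 5 neutrophil markers fell, S100a9 being the most abundant per length (384.5 ± 72.6 to 156.4 ± 34.8 CPM). The smallest p-values of these lists belonged to C1qb and Csf1r, which rose 2.16-fold and 1.87-fold, and to Retnlg, which fell to 0.37-fold (edgeR adjusted p = 1.29e-05, 4e-05 and 8.54e-05). None of the 6 adipocyte, 5 tested skeletal muscle and 5 tested Schwann cell markers passed, although 2 adipocyte and 3 Schwann cell markers had an unadjusted p of at most 0.05 in edgeR, as did 40.7% of all genes. The median log2 fold change of the adipocyte list was 1.1, with all 6 markers above 0, and its summed CPM was 39.9 to 70.2 in the vehicle tumors and 61.8 to 169.8 in treated tumors 4 to 8, with treated tumor 9 apart at 343.9. The medians of the other lists were 0.73 for fibroblasts, 0.18 for pericytes and smooth muscle, 0.92 for macrophages, -1.26 for neutrophils, -0.12 for skeletal muscle and 0.38 for Schwann cells. Per length, Fabp4 was the most abundant adipocyte marker, and was at 38.7 ± 9.2 and 88.0 ± 63.4 CPM, and Tnnt3 and Mbp, the most abundant per length of the muscle and Schwann cell lists, at 5.39 and 13.4 CPM in the vehicle group. Cdh19, a Schwann cell marker named after its values were seen, was at 0 in all 3 vehicle tumors.

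**Figure D5:**
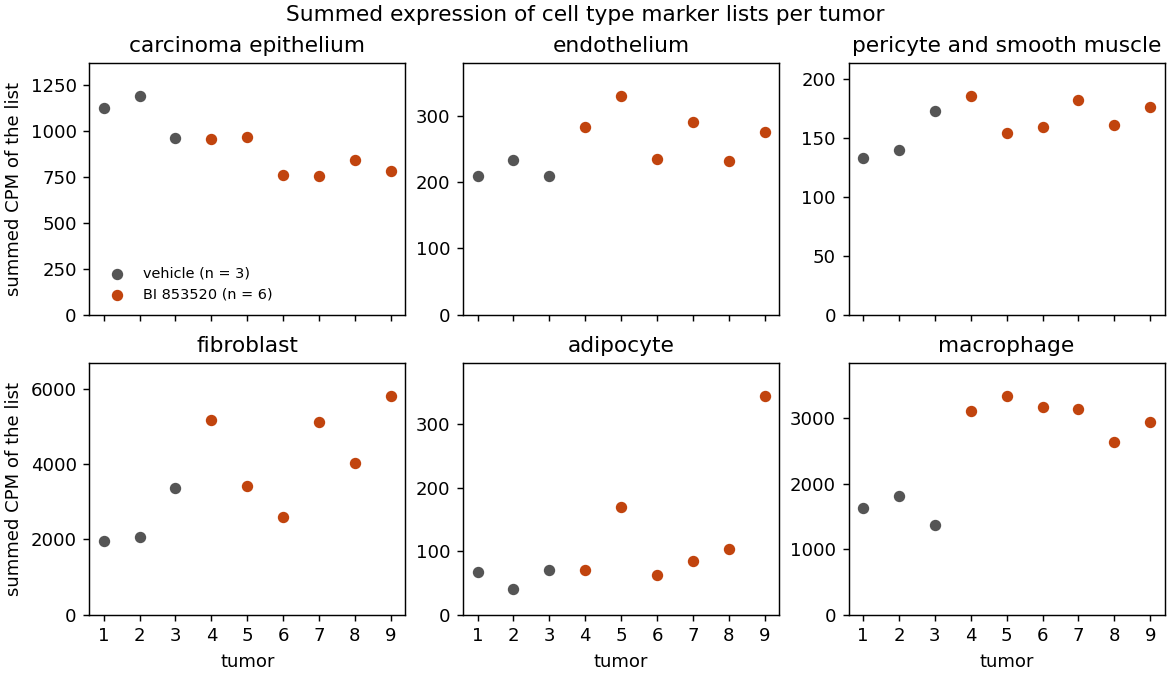
Summed CPM of 6 cell type marker lists in each tumor, numbered 1 to 9 (vehicle in gray, n = 3; BI 853520 in orange, n = 6), each axis starting at 0. The macrophage sums of all treated tumors lie above all vehicle tumors, the fibroblast sum varies widely among the treated tumors, and the carcinoma epithelium sums of the groups overlap.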

How the data were processed

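The 9 chains, the marker lists and the partner lists were chosen with earlier results of these data known. According to the study's methods, reads were aligned to mm9 with STAR, uniquely aligned reads kept, and reads starting in an exon of each RefSeq gene counted with QuasR. The deposited values are raw counts per gene, made by the authors without normalization, with a gene length. The deposited table held 18755 genes, 18700 with a RefSeq symbol. Counts were normalized by TMM, filtered with filterByExpr (minimum count 10, minimum total count 15) and tested in edgeR 4.0.16 (R 4.3.3) with the quasi-likelihood method, comparing treated with vehicle tumors, with p-values adjusted over 13966 genes. CPM and RPKM are TMM-normalized. The SE of a log2 fold change is its size divided by the square root of the quasi-likelihood F statistic, so it is derived from the test. Exact permutation tests used log2 CPM with a prior count of 2 and all 84 divisions of the tumors, two-sided. Positions came from a GENCODE annotation of mm9. The named genes are all chains, the 3 genes with the smallest p and the most abundant gene of each partner list, the most abundant gene and 2 with the smallest p of each marker list, and the 2 genes with the profile nearest to each chain called; some markers that the rule takes are left undescribed, genes named outside it are marked, and abundance is per length over all tumors. Alternatives were RLE factors, library size, no filter, 1 CPM in 3 tumors, DESeq2 1.42.0, limma-voom (limma 3.58.1), edgeR's likelihood ratio test, a prior count of 0.5, the study's cutoffs and leaving out each tumor. No 2 libraries agreed within sampling noise: the mean chi-square per gene between tumors of a group was at least 8.48. Some single genes are not reported here.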

Additional observations from a re-analysis of the deposited data

Results flagged for a closer look

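Dixon's test on the 6 treated tumors marked 3 of 35 genes, where chance marks about 1 in 20 groups. The Lamb3 level was highest in treated tumor 9, at 0.812 CPM (14 counts), with the next treated tumor at 0.236 CPM. The Itgb4 level was highest in treated tumor 5, at 379 CPM, with the next at 337.1 CPM. The Plau level was lowest in treated tumor 4, at 302.7 CPM, with the next at 348.7 CPM.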

How the results depend on the processing

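The count of chains that rose (1) ran from 0 to 1 when single tumors were left out and was 0 at the study's cutoffs. The count of chains that fell (0) was 1 with DESeq2 and ran from 0 to 1 without single tumors, the chain being Lamb1 each time. The log2 fold change of Lama4 ran from 0.25 to 0.50 without single tumors, and from 0.36 to 0.38 under the other alternatives, with adjusted p from 0.0139 to 0.0358. Of the partner genes, 1 to 3 rose and 9 to 13 fell when single tumors were left out. The alternatives were run for the 7 tested chains and 21 partner genes, and among these 28 the direction reversed for Itgb1 (-0.042 to 0.00357 without single tumors), which did not pass. For the cell type markers that passed, and for Krt14, Krt5 and Epas1, single tumors were left out, a choice made after the data were seen, and no other alternative was run. With GENCODE exon lengths, added after the data were seen, summed vehicle RPKM was 141 for α and 114.1 for β chains, and 96.8 for β chains in treated tumors, since the lengths differ. For the other changes the cause was not tested. The median log2 fold change of all genes moved by less than 0.1 under each scaling. No paired analysis was possible because the groups share no replicate number. Counting error limits Lama1, Lamb3 and Lama3, which had 1 to 34 counts per tumor, and 3 vehicle tumors limit every comparison.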

Other observations

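Over the 9 tumors, 12185 genes with a mean log2 CPM of at least 1 were compared with Lama4 by the root mean square distance between centered log2 CPM profiles. The nearest was Epas1, which encodes the hypoxia-inducible factor HIF-2α and is expressed in endothelium, at a distance of 0.0789. Epas1 rose from 34.4 ± 4 to 46.9 ± 4.95 CPM (SD, n = 3 and n = 6; log2 fold change 0.44, edgeR adjusted p = 0.00678). The next was Zfp398, a zinc finger gene, at a distance of 0.0893, with 6.72 ± 1.1 and 8.38 ± 0.812 CPM (SD, n = 3 and n = 6; edgeR adjusted p = 0.0928). These genes were picked for the likeness of their profile, which includes the difference between the groups.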
